A study of Mus musculus with 24 samples.

Results

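The 8 genes described here serve the rapid energy reserve of skeletal muscle, and they are Gatm and Gamt (creatine synthesis), Slc6a8 (creatine uptake), Ckmt2 and Ckb (creatine kinases), Ak1 (adenylate kinase), and Ampd1 and Ampd3 (AMP deaminases). They were chosen by name from creatine and adenine nucleotide metabolism, with earlier results of these data known. Gene symbols located them among the 55416 Ensembl genes counted. All 8 passed the filter on low counts, which kept 16408 genes. RNA was sequenced from the gastrocnemius, a calf muscle, of 24 mice with the strain label C56BL6J. In each sex, 6 mice were housed for 8 weeks in a small mouse cage (SMC), which restricts movement, and 6 ambulatory mice served as the sham group. The methods give wild-type mice bought at an age of 8 weeks. The labels do not mention pooling, and the paper states that its sample sizes in animals count individual mice, so each library is taken as 1 mouse. The comparison addressed how transcripts of the muscle differ after inactivity in males and in females.

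A contracting fibre can use ATP faster than its mitochondria replace it. Creatine kinases hold a reserve of high-energy phosphate as phosphocreatine. Ckmt2 makes phosphocreatine at the mitochondria of striated muscle, Ckm regenerates ATP in the cytosol of the fibre, and Ckb is the cytosolic form of brain, smooth muscle and other tissues. Creatine itself is made by Gatm and then Gamt, mostly in kidney and liver, and muscle takes it up from blood through the transporter Slc6a8. When ADP builds up, adenylate kinase 1 turns pairs of ADP into ATP and AMP. AMP deaminases then convert AMP to IMP, which keeps the adenylate kinase reaction running and starts the purine nucleotide cycle. Ampd1 is the main deaminase of skeletal muscle, and Ampd3 is the form of red blood cells that muscle also expresses.

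Ampd3 was the only member whose transcript passed the threshold in any of the 5 comparisons made, a false discovery rate (FDR) under 0.05 over all genes tested. Averaged over the sexes, Ampd3 was 25.2% lower after SMC (log2 fold change -0.42, SE 0.100, FDR 0.0266), and its fitted difference was nearly the same in males and in females. Ampd3 was also 32.0% lower in male than in female sham muscle (FDR 0.0395), a call that held in only 10 of 24 fits that left out 1 library each. In the mean of both sexes this was 1 of 8 members called, beside 2.36% of all genes tested and 1.33% called lower. In male against female sham muscle it was again 1 of 8, beside 1.97% of all genes and 1.14% called lower. Within males alone, and in the test of whether the SMC difference depended on sex, 0 members were called, beside 0.00% of all genes in each. Within females alone, 0 members were called, beside 0.341% of all genes. DESeq2 and limma also called 0 members in these 3 comparisons, and in the test of the dependence on sex 0 members had an unadjusted p under 0.05, beside 5.13% of all genes.

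The regions before the transcription starts of Ampd3 and Ckmt2 are shown because Ampd3 carries the difference and Ckmt2 carries the largest spread between mice. They are 250 bases long and come from RefSeq on GRCm38.p6, read 5′ to 3′ along the strand of the gene. Capitals mark the E-box letters CANNTG, a motif of myogenic and other basic helix-loop-helix factors, whose fixed letters read the same on both strands. RefSeq gives 3 starts for Ampd3, and the windows of the second and the third lie downstream of the first start, within the gene.
Ampd3 first start, chr7:110768372-110768621, plus strand: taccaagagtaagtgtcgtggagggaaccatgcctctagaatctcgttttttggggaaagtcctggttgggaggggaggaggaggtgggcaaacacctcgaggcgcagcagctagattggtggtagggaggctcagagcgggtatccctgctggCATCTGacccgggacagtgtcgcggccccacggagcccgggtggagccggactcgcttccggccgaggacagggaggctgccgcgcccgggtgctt
Ampd3 second start, chr7:110772354-110772603, plus strand: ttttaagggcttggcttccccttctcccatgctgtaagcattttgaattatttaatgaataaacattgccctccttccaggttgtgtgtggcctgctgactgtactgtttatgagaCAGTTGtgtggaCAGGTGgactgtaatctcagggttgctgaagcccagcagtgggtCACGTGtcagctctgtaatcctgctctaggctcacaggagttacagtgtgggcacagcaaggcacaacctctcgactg
Ampd3 last start, chr7:110773386-110773635, plus strand: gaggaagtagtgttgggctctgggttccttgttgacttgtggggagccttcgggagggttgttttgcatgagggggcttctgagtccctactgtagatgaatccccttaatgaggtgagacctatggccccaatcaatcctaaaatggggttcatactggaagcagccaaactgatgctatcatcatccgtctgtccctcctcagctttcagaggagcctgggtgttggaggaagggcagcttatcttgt
Ckmt2 start, chr13:91876886-91877135, minus strand: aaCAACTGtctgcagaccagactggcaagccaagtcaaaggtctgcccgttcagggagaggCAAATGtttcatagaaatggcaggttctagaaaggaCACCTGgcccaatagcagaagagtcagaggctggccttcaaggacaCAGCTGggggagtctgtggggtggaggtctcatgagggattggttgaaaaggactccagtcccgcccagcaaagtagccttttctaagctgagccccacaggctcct
The Ckmt2 window held 4 E-boxes, of which 1 was CAGCTG. The Ampd3 windows held 1, 3 and 0 E-boxes in the order printed, and none of them CAGCTG. Of 32851 windows of this length before mouse RefSeq starts, 66.2% held CANNTG and 13% held CAGCTG, so that an E-box was present in most windows. RefSeq windows were at hand for 6 of the 8 members. The windows of Gamt and Ckb held 0 E-boxes, that of Gatm held 1, and those of the 4 Ak1 starts held between 1 and 3. The Ckb window held 1 TATAAA, searched on both strands, and 12.4% of all windows held it. Ampd1 and Slc6a8 had no entry.

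Total counts lay between 23026627 and 36880413 per library. Fast fibre transcripts dominated, and the 10 fast fibre markers summed to between 68199 and 155144 CPM (counts scaled to a common library size with TMM factors). The 10 slow fibre markers summed to between 76.4 and 4594 CPM, and none of them was at 0 in any library. A pair of sham libraries stood apart on a slow fibre score, the mean log2 CPM of those 10 genes. Male sham replicate 4 scored 1.96 against 6.34 to 7.43 in the other male sham mice. Female sham replicate 7 scored 1.67 against 6.62 to 7.64 in the other female sham mice.

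Expressed per length (TPM, in which counts are divided by exon length and scaled to a common total, mean ± SD over all 24 mice), the levels of the members covered a wide range. Ckmt2 (1515 ± 555 TPM) and Ak1 (1477 ± 105 TPM) were the most abundant, followed by Ampd1 (926 ± 213 TPM), and the ranges of these neighbours overlapped. This order rests on the lengths used, which join all annotated exons of a gene. In CPM, with no division by length, the means were 966 for Ak1, 830 for Ampd1 and 567 for Ckmt2. Slc6a8 was intermediate at 97.1 ± 14.3 TPM, and its range of 73.1 to 127 TPM touched neither Ampd1 above nor Ampd3 below. Ampd3 (8.74 to 34.0 TPM), Gamt (8.52 to 24.8 TPM), Ckb (4.46 to 9.32 TPM) and Gatm (3.32 to 9.92 TPM) were low, with overlapping ranges between neighbours in that order. For scale, Ckm, the muscle creatine kinase, reached 18444 ± 2547 TPM. Ckb, Gamt and Gatm had as few as 71, 98 and 75 counts in a library, and counting error alone gave coefficients of variation of 8.39%, 7.78% and 8.45%, beside 20.6%, 26.6% and 24.5% between the mice.

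**Figure D1:**
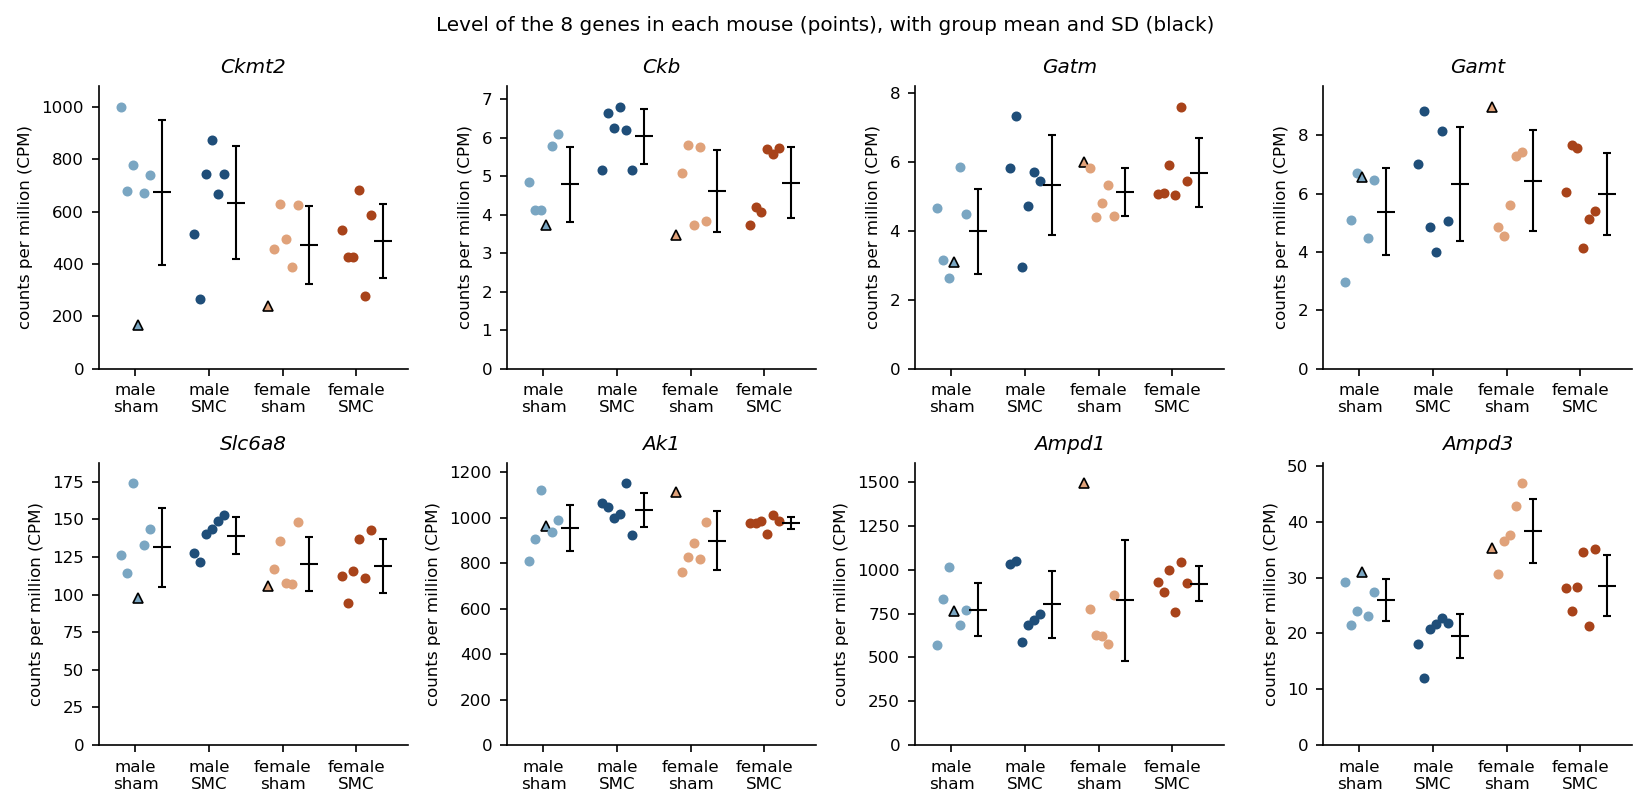
Level of each of the 8 genes in CPM (vertical axes from 0) in every mouse of the 4 groups, with the group mean and SD in black. Triangles mark male sham replicate 4 and female sham replicate 7, the libraries with low slow fibre scores. Ampd3 lies lower in SMC than in sham and lower in males than in females, with some overlap.

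Creatine synthesis begins with Gatm, the amidinotransferase that makes guanidinoacetate. Gatm ranged from 2.62 to 5.87 CPM in male sham (median 3.84) and from 2.96 to 7.33 CPM in male SMC (median 5.58). It ranged from 4.40 to 5.99 CPM in female sham (median 5.08) and from 5.06 to 7.60 CPM in female SMC (median 5.28). The groups overlapped in both sexes, and the 2 lowest values were those of male sham and male SMC mice. The log2 fold change of Gatm after SMC was 0.42 in males (SE 0.189, FDR 0.414 by edgeR) and 0.15 in females (SE 0.187, FDR 0.808). Averaged over the sexes it was 0.28 (SE 0.133, FDR 0.265), and none of these passed the threshold. An exact permutation test (two-sided) of log2 CPM in the 12 males gave p = 0.130. Without female SMC replicate 23, the mouse with the highest value, the log2 fold change in females was 0.056, and leaving out 1 library gave 0.30 to 0.55 in males.

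The genes whose pattern over the 24 mice was most like that of Gatm were Reln (Pearson r = 0.84), Plekha4 (r = 0.83) and Sox10 (r = 0.81). Sox10 is a transcription factor of Schwann cells, and the libraries behind these values share the group differences. The 5 Schwann cell markers summed to between 42.0 and 85.9 CPM in male sham and between 71.7 and 115 CPM in male SMC. They summed to between 57.5 and 159.7 CPM in female sham and between 74.5 and 165 CPM in female SMC. All 5 had a higher fitted level after SMC in males, with 0 called, beside 0.00% of all genes, and none was at 0 in any library. In whole muscle, more cells of a type and more RNA per cell cannot be told apart, and the part of Schwann cells in the Gatm values was not tested.

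Gamt, the methyltransferase that completes creatine, had a median of 5.78 CPM in male sham (2.97 to 6.70) and 6.05 CPM in male SMC (3.99 to 8.82). Its median was 6.45 CPM in female sham (4.53 to 8.97) and 5.72 CPM in female SMC (4.13 to 7.68). The groups covered much the same range. For Gamt the log2 fold change after SMC was 0.24 in males (95% interval -0.22 to 0.69, FDR 0.758) and -0.10 in females (-0.56 to 0.35, FDR 0.895). The male value was 0.10 without male sham replicate 1. Phkg1 (r = 0.78), Dop1b (r = 0.78) and Sort1 (r = 0.77) had the most similar patterns over the 24 mice.

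Slc6a8, the importer of creatine, had a median of 129 CPM in male sham (97.6 to 173.9) and 142 CPM in male SMC (122 to 153). Its median was 112 CPM in female sham (106 to 149) and 114 CPM in female SMC (94.5 to 143). The lowest value in each sham group was that of the library with the low slow fibre score. The log2 fold change was 0.083 in males (95% interval -0.17 to 0.33, FDR 0.864) and -0.016 in females (-0.27 to 0.23, FDR 0.976). The male value was 0.00058 if male sham replicate 4 was left out and 0.18 if replicate 3 was. Akap1 (r = 0.89), which anchors protein kinase A at mitochondria, was the gene most like Slc6a8 over the 24 mice, followed by Kremen1 (r = 0.85) and Lynx1 (r = 0.85).

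Among the creatine kinases, Ckmt2 had a coefficient of variation of 37.0% over the 24 mice, the highest of the 8 members. In males Ckmt2 ranged from 167 to 1000.7 CPM in sham (median 710.4) and from 264 to 875 CPM in SMC (median 706). In females it ranged from 238 to 631 CPM in sham (median 477) and from 277 to 683 CPM in SMC (median 478). In all 4 groups, the mouse with the lowest Ckmt2 was the mouse with the lowest slow fibre score. The medians of sham and SMC were close together in both sexes, and the log2 fold change was -0.085 in males (95% interval -0.73 to 0.56) and 0.048 in females (-0.60 to 0.70). The intervals were wide enough to hold large changes in either direction.

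The Ckmt2 estimates moved with the slow fibre libraries, although none passed the threshold. Without male sham replicate 4 and female sham replicate 7, the log2 fold change was -0.29 in males (FDR 0.645), -0.086 in females (FDR 0.899) and -0.19 in the mean of both (FDR 0.558). After adjustment for the slow fibre score, the mean of both sexes was -0.29 (SE 0.129, FDR 0.195). The score was not free of the housing, since 9 of its 10 genes had higher fitted levels after SMC in that contrast and 1 lower. Their median log2 fold change was 0.55, with 0 called, beside 2.36% of all genes. How far the adjustment moved the Ckmt2 estimate for that reason was not tested. Ckmt2 in male sham against female sham muscle had a log2 fold change of 0.51 (SE 0.315, FDR 0.455), and 0.58 without the same libraries (FDR 0.193). The genes most like Ckmt2 over the 24 mice were Mdh1 (r = 0.97), a malate dehydrogenase, Wfs1 (r = 0.96) and Acaa2 (r = 0.96), a thiolase of mitochondrial fatty acid oxidation.

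**Figure D2:**
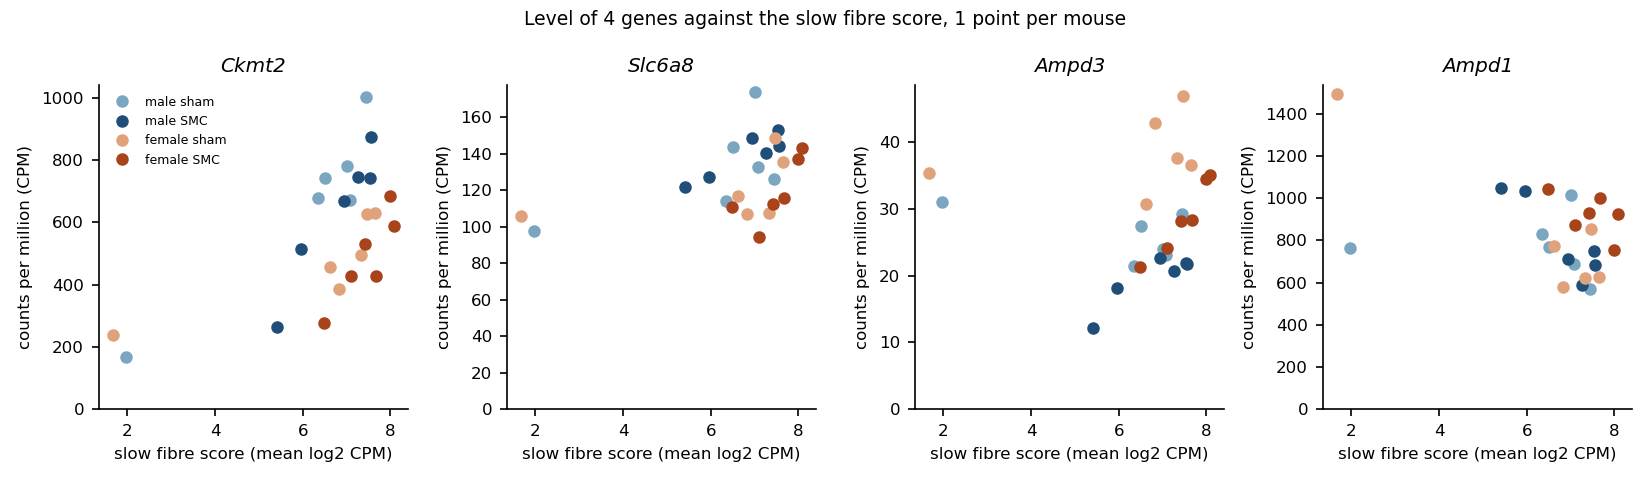
Level of Ckmt2, Slc6a8, Ampd3 and Ampd1 in CPM (vertical axes from 0) against the slow fibre score, the mean log2 CPM of 10 slow fibre markers, with 1 point per mouse coloured by group. The 2 libraries with scores under 2 have low Ckmt2 (167 and 238 CPM), and 1 of them has the highest Ampd1 (1493 CPM). Their Ampd3 is not low, since 31.0 CPM is the highest value of male sham and 35.4 CPM lies within the range of the other female sham mice.

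Ckb, the brain-type kinase, ranged from 3.73 to 6.10 CPM in male sham (median 4.48) and from 5.15 to 6.79 CPM in male SMC (median 6.22). It ranged from 3.46 to 5.81 CPM in female sham (median 4.45) and from 3.72 to 5.72 CPM in female SMC (median 4.88). In males the upper sham values reached into the SMC range, and in females the groups overlapped throughout. The log2 fold change of Ckb was 0.33 in males (SE 0.155, FDR 0.424) and 0.068 in females (SE 0.156, FDR 0.905). The female value was 0.0060 without female sham replicate 7 and 0.14 without female sham replicate 9. The difference between the sexes in this change was 0.27 (95% interval -0.19 to 0.72, FDR 0.983). An exact permutation test (two-sided) of log2 CPM in the 12 males gave p = 0.0390, 1 of 16 such tests (each member in each sex) with no adjustment.

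The summed level of the 5 smooth muscle markers, like the median of Ckb, lay higher in male SMC than in male sham. They summed to between 136 and 174 CPM in male sham and between 204 and 326 CPM in male SMC, and to between 144 and 207 CPM in female sham and between 180.0 and 289 CPM in female SMC. All 5 had a higher fitted level after SMC in the mean of both sexes, 4 of them with an FDR under 0.05, beside 2.36% of all genes. In males all 5 were higher (median log2 fold change 0.77) and 0 were called, beside 0.00% of all genes. None of the 5 was at 0 in any library. The part of smooth muscle in the Ckb values was not tested. The patterns most like that of Ckb over the 24 mice were those of Naa40 (r = 0.81), Mfhas1 (r = 0.74) and 0610012D04Rik (r = 0.73).

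Ckm had no detectable change, with a log2 fold change of 0.082 in the mean of both sexes (SE 0.105, FDR 0.739). Ckm made up between 83.7% and 98.1% of the summed creatine kinase level per length in any mouse. Ckmt2 supplied most of the remainder, with group means between 6.61% and 9.32%, and Ckb between 0.0330% and 0.0400%. Ckmt1, the mitochondrial kinase of non-muscle tissues, was below the filter and was not tested. It had between 0 and 2 counts in 23 libraries and 133 counts in female sham replicate 11.

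**Figure D3:**
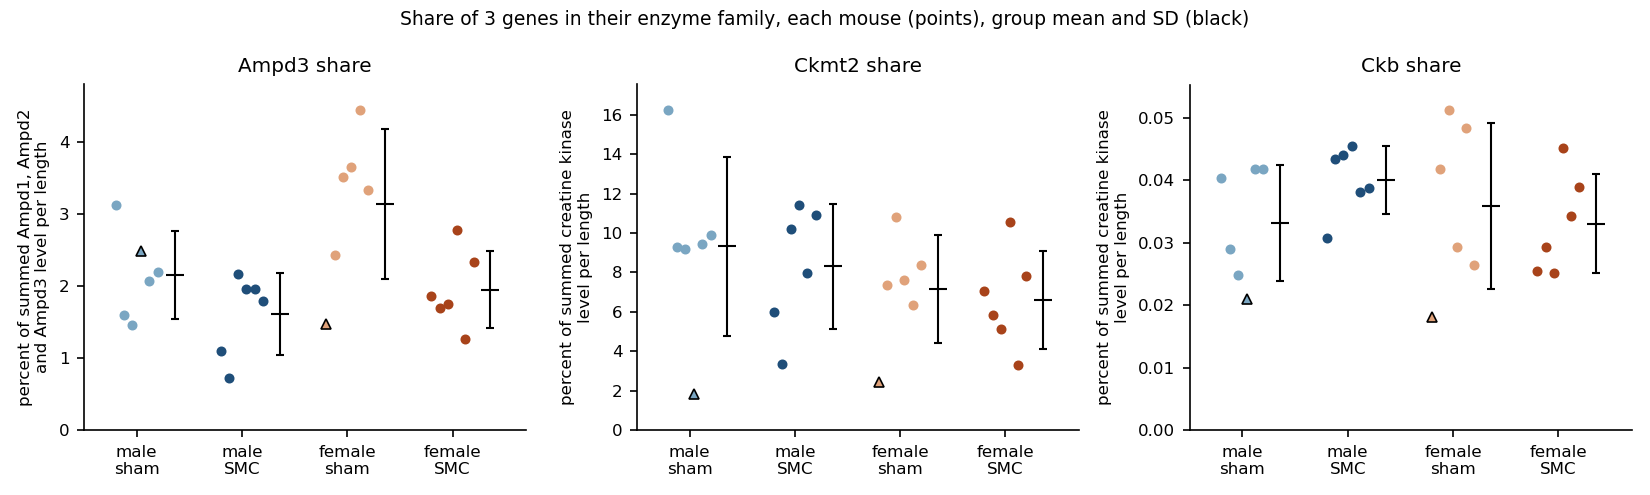
Share of Ampd3 in the summed AMP deaminase level per length, and of Ckmt2 and Ckb in the summed creatine kinase level per length, in percent (vertical axes from 0), for every mouse of the 4 groups with group mean and SD. The Ampd3 share averages 3.14% in female sham, 2.16% in male sham, 1.95% in female SMC and 1.61% in male SMC, and the Ckmt2 share is lowest in the mice marked by triangles.

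Ak1, the cytosolic adenylate kinase of muscle, was the steadiest member, with a coefficient of variation of 10.2% over the 24 mice. In males it ranged from 808 to 1120.2 CPM in sham (median 950.3) and from 926 to 1151 CPM in SMC (median 1033). In females it ranged from 762 to 1115 CPM in sham (median 857) and from 927 to 1012 CPM in SMC (median 982). The SMC medians lay above the sham medians in both sexes, with overlapping groups. For Ak1 the log2 fold change was 0.12 in males (SE 0.0893, FDR 0.698), 0.12 in females (SE 0.0893, FDR 0.628) and 0.12 in the mean of both (95% interval -0.012 to 0.25, FDR 0.338). Nudt3 (r = 0.89), Srl (r = 0.88), a protein of the sarcoplasmic reticulum, and Mtfr1l (r = 0.87) were most like it over the 24 mice.

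Ampd1, the deaminase of the muscle fibre, ranged from 568 to 1017 CPM in male sham (median 767) and from 587 to 1049 CPM in male SMC (median 730.4). It ranged from 578 to 1493 CPM in female sham (median 700.4) and from 756 to 1042 CPM in female SMC (median 927). The highest value belonged to female sham replicate 7, and the other 5 female sham mice reached at most 855 CPM. The log2 fold change of Ampd1 was 0.054 in males (95% interval -0.34 to 0.45, FDR 0.955) and 0.16 in females (-0.24 to 0.56, FDR 0.804). Without male sham replicate 4 and female sham replicate 7, it was 0.42 in females (SE 0.156, FDR 0.176). Pitpna (r = 0.88), Ociad2 (r = 0.82) and Pvalb (r = 0.81), the calcium buffer of fast fibres, had the most similar patterns over the 24 mice.

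Ampd3, the deaminase of lower level, was lower in most SMC mice of both sexes. In males Ampd3 ranged from 21.5 to 31.0 CPM in sham (median 25.8) and from 12.1 to 22.7 CPM in SMC (median 21.2). In females it ranged from 30.7 to 46.9 CPM in sham (median 37.1) and from 21.3 to 35.1 CPM in SMC (median 28.3). In males 3 SMC values lay just above the lowest sham value, in females 2 SMC values lay within the lower part of the sham range, and all other SMC values lay under those of every sham mouse of their sex. The log2 fold change was -0.42 in males (SE 0.143, FDR 0.272) and -0.42 in females (SE 0.141, FDR 0.176). Exact permutation tests (two-sided) of log2 CPM gave p = 0.0108 in males and p = 0.0130 in females, where the smallest p that 6 against 6 mice can give is 0.00216. These are 2 of 16 such tests (each member in each sex), whose p were not adjusted.

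In the mean of both sexes, Ampd3 fell by 0.42 on the log2 scale (95% interval -0.63 to -0.21, FDR 0.0266 by edgeR). The difference between the sexes in this change was 0.0070 (95% interval -0.41 to 0.42, FDR 0.998), so that the 2 changes were close but the interval allowed a sizeable difference. DESeq2 gave an FDR of 0.00590 and limma an FDR of 0.0240 for the same contrast. The call held in 23 of 24 fits that left out 1 library each, and without male sham replicate 1 the FDR was 0.0514. It also held without the 2 libraries of low slow fibre score (log2 fold change -0.41, FDR 0.0405).

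Between the sexes, the fitted level of Ampd3 lay lower in males in both housing conditions. Male sham against female sham gave a log2 fold change of -0.56 (SE 0.141, 95% interval -0.85 to -0.26, FDR 0.0395), and the highest male sham value of 31.0 CPM just passed the lowest female value of 30.7 CPM. Male SMC against female SMC, a comparison added after the data were seen, gave -0.55 (FDR 0.0614), where 0 members and 1.03% of all genes were called. Averaging over both housing conditions, also added later, gave -0.55 (SE 0.100, FDR 0.00126), a contrast in which 4.93% of all genes were called and 2.54% were called lower. The sham difference kept its call in 10 of 24 fits that left out 1 library each, with log2 fold changes between -0.61 and -0.48 and the highest FDR, 0.103, without male sham replicate 2. The fits that lost it left out male sham replicates 1, 2, 3, 5 or 6, female sham replicates 10, 11 or 12, male SMC replicates 13, 15, 16 or 18, or female SMC replicates 19 or 21.

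Several measurements lay beside the Ampd3 result. The 8 muscle atrophy markers, among them the ubiquitin ligases Fbxo32 and Trim63, all had lower fitted levels after SMC in the mean of both sexes. Their median log2 fold change was -1.15, and 5 of them had an FDR under 0.05, beside 1.33% of all genes called lower. In females they summed to between 1221 and 3129 CPM in sham (median 1739) and between 665 and 1317 CPM in SMC (median 907). In males they summed to between 876 and 5223 CPM in sham (median 1084) and between 796 and 1272 CPM in SMC (median 906). In male sham against female sham, 6 of the 8 had lower fitted levels, with a median of -0.64. There 1 of the 8 was called, beside 1.97% of all genes. None was at 0 in any library. Red blood cell markers, which include the haemoglobin genes, overlapped between sham and SMC. Their sums were 176 to 1585 CPM in male sham and 268 to 1218 CPM in male SMC. In females the sums were 75.1 to 1852 CPM in sham and 257 to 947 CPM in SMC. All 6 had higher fitted levels in male sham than in female sham (median log2 fold change 0.62). After SMC all 6 were lower in males (median -0.46) and in the mean of both sexes (-0.21), but all 6 were higher in females (0.060). In each of these comparisons 0 of the 6 were called, beside at most 2.36% of all genes. The part of these in the Ampd3 values was not tested.

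Exons of Ampd3 shared 195 of 5627 bases with exons of Rnf141 on the opposite strand in the GENCODE annotation used for lengths. The library kit marks strand, and the strand setting of the counting was not given in the sources used here. Rnf141 had a log2 fold change of -0.054 in the mean of both sexes (FDR 0.674) and of -0.28 in male sham against female sham (FDR 0.0727). B430319F04Rik, which shares 196 bases on the opposite strand, had at most 6 counts in any library. The miRNA gene Gm47282 shares 83 bases with Ampd3 on the same strand, where strand does not separate the reads, and its counts were not examined. Exons of Ckmt2 share 84 of 1486 bases with 1700119I11Rik on the opposite strand, which had at most 4 counts in any library.

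Among the genes most like Ampd3 over the 24 mice were Mcf2l (r = 0.80), Adgrb2 (r = 0.77) and Aldh16a1 (r = 0.77). Without the 2 libraries of low slow fibre score, Ak4 (r = 0.90), a mitochondrial adenylate kinase, H19 (r = 0.85) and Abhd18 (r = 0.82) came first. Like the r of similar genes given for the other members, these were not centred on the group means. Differences between the sexes and the housing groups therefore enter them. Ak4 ranged from 1.32 to 5.33 CPM in male sham, from 0.968 to 4.68 in male SMC, from 3.41 to 13.6 in female sham and from 2.37 to 10.9 in female SMC. Its log2 fold change was -1.39 in male sham against female sham (SE 0.394, FDR 0.0667) and -0.30 after SMC in the mean of both sexes (FDR 0.620). The male values of Ak4 lay mostly under the female ones, with overlap, and the difference did not pass the threshold.

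**Figure D4:**
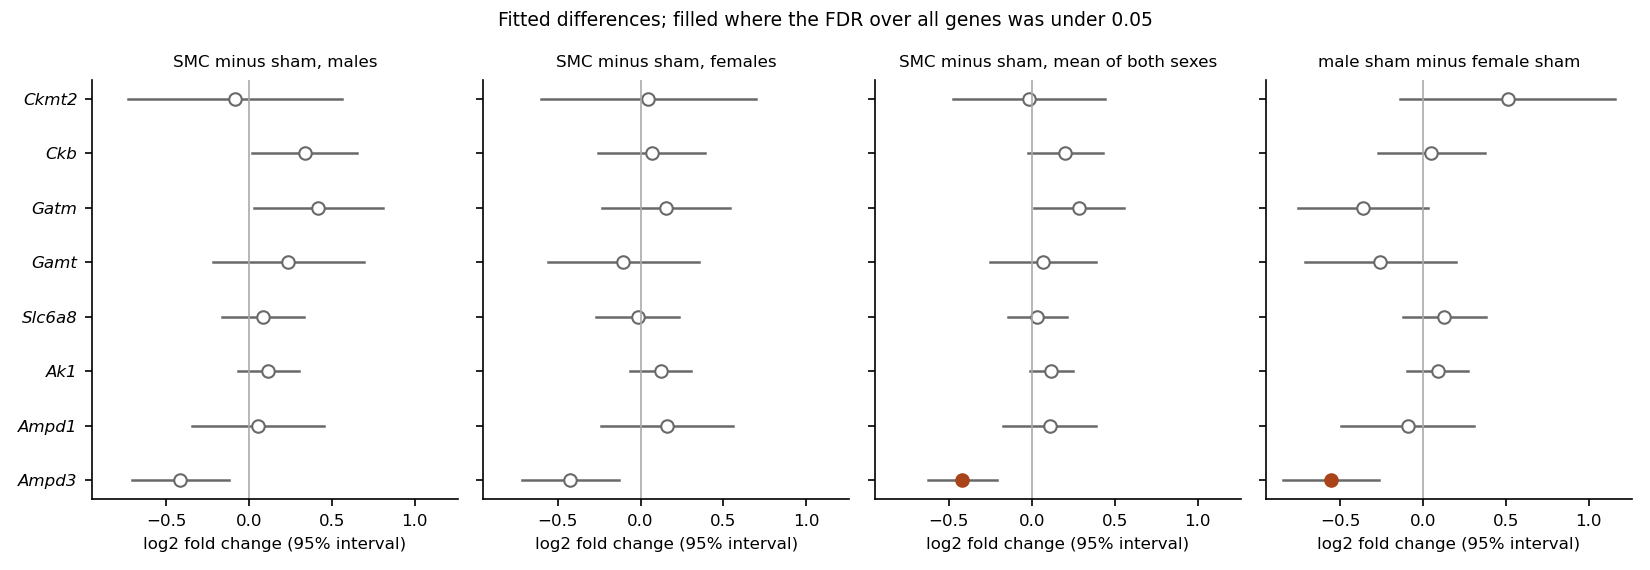
Log2 fold change of the 8 genes (horizontal axes) with 95% intervals from the edgeR fit, for SMC minus sham in males, in females and in the mean of both sexes, and for male sham minus female sham. Ampd3 is filled in the last 2 panels, where its FDR was 0.0266 and 0.0395, and the Ckmt2 intervals are the widest.

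In the mean of both sexes, 6 had higher and 2 lower fitted levels after SMC, with a median log2 fold change of 0.087, beside a median of -0.0089 over all 16408 genes. With no scaling factor, where the median of all genes was -0.14, the fitted differences of Slc6a8, Gamt, Ampd1 and Ak1 turned negative, none of them called. In males, 2 of 8 were higher at an unadjusted p under 0.05 (Ckb and Gatm), beside 5.41% of all genes, and 1 was lower (Ampd3), beside 5.59%. In females 0 of 8 were higher by that measure, beside 5.02% of all genes, and 1 was lower (Ampd3), beside 7.47%. Across all genes edgeR called 0 in males, where 1805 had an unadjusted p under 0.05, DESeq2 called 130 and limma 93. For the dependence on sex it called 0, with 841 at an unadjusted p under 0.05, and DESeq2 called 1 and limma 0.

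A list of 51 further genes of the same pathways was read beside the members, of which 46 were tested. In the mean of both sexes 1 of 46 was called, lower, and 0 higher, which is close to the 2.36% of all genes called. The gene called was Slc25a5, an ADP/ATP carrier of the mitochondrial inner membrane, with a log2 fold change of -0.36 (SE 0.0937, FDR 0.0412). Slc25a5 ranged from 15.9 to 27.4 CPM in male sham and 16.1 to 22.6 CPM in male SMC, and from 17.2 to 28.7 CPM in female sham and 11.9 to 18.4 CPM in female SMC. Its values were lower in most SMC mice, with overlap. Slc25a4, the main carrier of muscle, had a log2 fold change of -0.067 (FDR 0.646).

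In the other 4 comparisons, 0 of the 46 were called. By role in the mean of both sexes, all 7 subunit genes of AMP-activated kinase, the sensor of AMP, had higher fitted levels with TMM scaling. None of the 7 was called, and of all 16408 genes 7808 were higher and 8600 lower. Within each sex 6 of the 7 were higher and 1 lower, not the same gene in both. In the mean of both sexes the median of these 7 was 0.075 on the log2 scale, which is smaller than the shift of all genes to -0.14 with no scaling factor. All 3 salvage genes and 6 of 7 genes of purine synthesis had lower fitted levels, with medians of -0.065 and -0.025. The 8 tested genes of nucleotide breakdown had a median of -0.12, with 6 lower. Ampd2, the remaining AMP deaminase, had a log2 fold change of 0.23 (SE 0.0977, FDR 0.207), opposite in sign to Ampd3.

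To see which members varied together from mouse to mouse within groups, log2 CPM was centred on the group mean, and all 28 pairs were tested by permutation within groups with 100000 resamples, two-sided. Ckmt2 and Slc6a8 correlated at r = 0.69 (p = 0.000590, adjusted over the 28 pairs 0.00826) and rho = 0.75 (p = 1.00e-04), at r = 0.72 in males and 0.69 in females, and at r = 0.58 without the 2 mice farthest from the median of Ckmt2. Gamt and Ak1 correlated at r = 0.70 (p = 0.000250, adjusted 0.00700) and rho = 0.76 (p = 8.00e-05), and at r = 0.67 without the 2 farthest mice. Ampd1 and Ak1 correlated at r = 0.71 (p = 0.00221, adjusted 0.0155, permutation) and rho = 0.72 (p = 0.000710), and at r = 0.54 without the 2 farthest mice. Gamt and Ampd1 correlated at r = 0.63 (p = 0.00179, adjusted 0.0155, permutation) and rho = 0.61 (p = 0.00433), and at r = 0.58 without the 2 farthest mice. Ckmt2 and Gamt ran opposite to each other, at rho = -0.62 (permutation p = 0.00292, adjusted 0.0204), while r = -0.57 did not pass after adjustment (p = 0.0127, adjusted 0.0713) and was -0.52 without the 2 farthest mice. The other 23 pairs, among them all pairs with Ckb, Gatm or Ampd3, did not pass 0.05 after adjustment by either measure.

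These relations changed when male sham replicate 4 and female sham replicate 7 were left out. Ckmt2 and Slc6a8 then had r = 0.56 (adjusted p = 0.0346, permutation) and Gamt and Ak1 r = 0.68 (adjusted p = 0.0287, permutation). Ckmt2 and Ampd3, at r = 0.38 over all 24 mice (adjusted p = 0.180, permutation), had r = 0.83 over the 22 (p = 0.000250, adjusted 0.00700, permutation) and rho = 0.73 (p = 0.000540), with r = 0.93 in males, 0.69 in females and 0.64 without the 2 farthest mice. Slc6a8 and Ampd3 had r = 0.56 (adjusted p = 0.0467, permutation). Ampd1 with Ak1 (r = 0.53) and with Gamt (r = 0.61) no longer passed the threshold. The relation of Ckmt2 to Ampd3 thus moved with the inclusion of these libraries, and it moved with the scaling too. With no scaling factor it had r = 0.57 over all 24 mice (adjusted p = 0.0435, permutation).

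**Figure D5:**
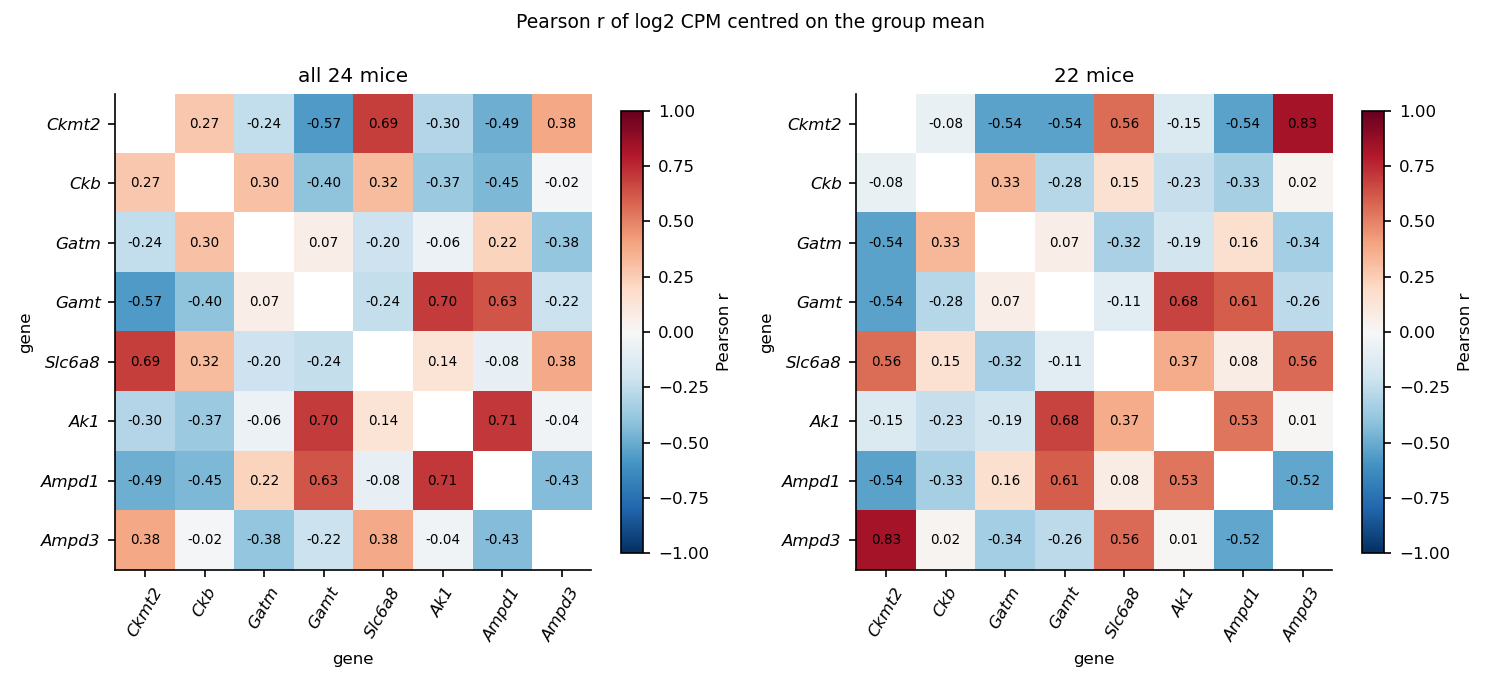
Pearson r between each pair of the 8 genes, from log2 CPM centred on the group mean, over all 24 mice (left) and over the 22 mice without male sham replicate 4 and female sham replicate 7 (right). The cell of Ckmt2 and Ampd3 goes from 0.38 to 0.83, and that of Gamt and Ak1 from 0.70 to 0.68.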

How the data were processed

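Total RNA of the gastrocnemius was depleted of ribosomal RNA and sequenced with a strand-specific kit. The authors deposited raw read counts per Ensembl gene for all 24 libraries. The submitters' processing notes name cutadapt 1.16, STAR 2.7.9a, featureCounts 1.6, DESeq2 1.34.0 and the build GRCm39, while the strand setting of the counting and the annotation release were not given in the sources used here. Groups came from the sample labels (6 mice each), and none of the 60 pairs of libraries within groups agreed within sampling noise. Genes without a symbol held 0.361% of counts.

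Counts were fitted with edgeR 4.0.16 in R 4.3.3 (quasi-likelihood F test, TMM scaling, filterByExpr, 1 mean per group over all 24 libraries). P-values of these fits were two-sided and were adjusted by Benjamini-Hochberg over the 16408 genes tested. They rest on the spread between libraries, each taken as 1 mouse. Log2 CPM used a prior count of 2. Isoform shares were computed from TPM and, as an alternative, from raw counts. TPM and exon overlaps used GENCODE M21 exon lengths matched by gene ID, since the annotation at hand was of GRCm38. Each script for tests across genes was tested on simulated data. DESeq2 1.42.0, limma 3.58.1 with sample weights, other scalings and filters (none, or at least 10 counts in every library), a slow fibre score as covariate, and leaving out libraries were the alternatives. The members and the gene lists were chosen with earlier results of these data known. Besides the members, Ckm, Ckmt1, pathway genes with an FDR under 0.05 and the 3 genes most correlated with each member were named by rule. Ak4, Ampd2, Slc25a4 and Rnf141 were named after their values were seen.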

Additional observations from a re-analysis of the deposited data

Results flagged for a closer look

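In groups of 6 mice, 52 sets of values were checked for a mouse whose gap to the nearest other exceeded Dixon's 95% limit, which chance exceeds in about 1 of 20 sets, and 4 exceeded it. Ampd1 in female sham replicate 7 was 1493 CPM, against 578 to 855 CPM in the other female sham mice. Gatm in female SMC replicate 23 was 7.60 CPM, against 5.06 to 5.91 CPM in the other female SMC mice. The slow fibre score was 1.67 in female sham replicate 7, against 6.62 to 7.64 in its group. It was 1.96 in male sham replicate 4, against 6.34 to 7.43 in its group.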

How the results depend on the processing

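No paired analysis was made because the labels name no pairs of mice. The methods say that sham and SMC mice shared cages in pairs in some experiments, without saying which. Ampd3 kept its call in the mean of both sexes under all alternatives except the fit without male sham replicate 1, and its call in male against female sham was lost with no scaling factor (FDR 0.0921), no filter (0.0609) and only sham libraries (0.0630), where 0 members were called, as in male SMC against female SMC. Leaving out 1 library gave 0 to 1 members called in both comparisons.

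The number of genes called moved more, and the cause was not tested. In females it was 37 with DESeq2 size factors, 215 with no scaling factor, 260 with DESeq2, 16 with limma, 155 without the 2 libraries of low slow fibre score, 187 with that score as covariate and 14 with female libraries alone. In males it was 130 with DESeq2, 93 with limma and 13 with the covariate, and for the dependence on sex 1 with DESeq2. In the mean of both sexes it was 1861 with no scaling factor, 776 with DESeq2, 189 with no filter and 733 with the covariate. In male against female sham it was 179 with no scaling factor, 582 with DESeq2, 511 without the 2 libraries, 692 with the covariate and 58 with sham libraries alone, beside 169 in SMC mice and 809 averaged over housing. Leaving out 1 library gave 0 to 78 in males, 0 to 147 in females, 0 to 1 for the dependence on sex, 236 to 501 in the mean of both sexes and 187 to 487 in male against female sham. With no scaling factor the median log2 fold change of all genes was -0.13 in males, -0.15 in females and -0.14 in the mean of both, and the share of calls that were higher went in the mean of both from 43.6% to 3.65%, in females from 35.7% to 6.05% and in male against female sham from 42.3% to 54.2%.

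Some log2 fold changes that were not called, most of them small, turned their sign. With no scaling factor they were -0.047 for Slc6a8, -0.073 for Ampd1 and -0.0084 for Ak1 in males, -0.093 for Ckb and -0.092 for Ckmt2 in females, and -0.099 for Slc6a8, -0.046 for Gamt, -0.0072 for Ampd1 and -0.0018 for Ak1 in the mean of both. With limma they were -0.025 for Ampd1 in males, -0.0080 for Ckmt2 and 0.020 for Gamt in females, and 0.10 for Ampd1 in male against female sham. Without the 2 libraries they were -0.086 for Ckmt2 and 0.015 for Gamt in females, -0.023 for Slc6a8 in the mean of both, and 0.17 for Ampd1 in male against female sham. With the covariate they were -0.0077 for Ckb, -0.35 for Ckmt2 and 0.059 for Gamt in females, -0.042 for Slc6a8 in the mean of both, and 0.12 for Ckmt2 in the dependence on sex. For Ampd3 the dependence on sex was -0.00015 with DESeq2 and -0.017 with no filter, and Gamt was 0.082 in male SMC against female SMC.

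Leaving out 1 library gave Ampd1 -0.042 to 0.15 and Ckmt2 -0.29 to 0.075 in males, and Ckmt2 -0.086 to 0.17, Gamt -0.19 to 0.015 and Slc6a8 -0.073 to 0.061 in females. It gave Ak1 -0.089 to 0.047, Ampd3 -0.075 to 0.11 and Ckmt2 -0.34 to 0.027 for the dependence on sex, Ckmt2 -0.12 to 0.061, Gamt -0.00011 to 0.12 and Slc6a8 -0.0057 to 0.080 in the mean of both, and Ampd1 -0.19 to 0.17 and Ckb -0.030 to 0.13 in male against female sham.

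Correlations turned their sign without the 2 libraries for Ckb with Ckmt2 (-0.077) and Ampd3 (0.024), Slc6a8 with Ampd1 (0.077) and Ampd3 with Ak1 (0.0097). With no scaling factor they turned for Ckb with Ampd3 (0.26) and Ak1 (0.071), Ckmt2 with Ak1 (0.17), Slc6a8 with Gatm (0.014) and Gamt with Gatm (-0.014).

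With no scaling factor, the adjusted permutation p of Ckmt2 with Ampd3 (r = 0.57) and of Ampd1 with Ampd3 (r = -0.61) fell under 0.05, while those of Gamt with Ampd1 (r = 0.51), Gamt with Ak1 (r = 0.48) and Ampd1 with Ak1 (r = 0.45) did not.

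On raw counts with no division by length, the group means of the Ckmt2 share were 3.50% to 5.03% and those of the Ampd3 share 2.53% to 4.87%, where Ampd3 remained highest in female sham and lowest in male SMC mice.

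The overlaps of Ampd3 with Rnf141 and with Gm47282 could not be resolved from gene counts.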
